A study of Sus scrofa with 16 samples.

Results

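Fatty acid oxidation genes were followed in the left ventricle of exercised and sedentary swine. The set held 34 listed genes that take up fatty acids, activate them, carry them into mitochondria, oxidise them there, or regulate and buffer that flow. A gene was counted as measured where a probe set of the Affymetrix porcine array carried its symbol and no other. By that rule 30 genes were measured, by 41 of the 23935 probe sets tested, among 6765 named genes in all. Of the other listed genes, CD36, MLYCD, ACOT2 and PLIN5 were not analysed here. Each gene is described by the probe set with the highest mean level, and the remaining probe sets of 10 genes are compared with it.

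The exercised group had 8 exercise-trained animals, with 4 females and 4 castrated males. The sedentary group had 8 animals of the same makeup. All were Yorkshire x Landrace crosses aged 2 to 3 months, so both groups were young and all males were neutered. RNA came from the left ventricle 4 to 5 weeks after the protocol began, with 1 array for each animal, and the kind and amount of exercise were not given in the sources used here.

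The adult heart takes most of its energy from fatty acids. They are bound in the cytosol, joined to coenzyme A, passed into mitochondria as carnitine esters and shortened in a repeating cycle of dehydrogenation, hydration, a further dehydrogenation and thiolysis. The nuclear receptor PPARA switches on many of these genes. PDK4, a kinase that holds back pyruvate oxidation, tips the balance toward fatty acids and away from glucose. Fatty acid oxidation genes are often described as higher in the physiologically enlarged heart than in the failing one.

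Values are log2 signals as deposited, where a difference of 1 is a doubling. They ran from 2.87 to 14.86 over all arrays, every array had the same median, and the correlation of an array with the average of the rest was 0.988 to 0.994. The arrays fell into 2 sets by the mean of 42 control probe sets for transcripts added before labelling, at 7.22 to 8.20 log2 on 11 arrays and 5.81 to 6.31 log2 on 5 arrays. The labels do not name these sets, here called array set 1 and array set 2. Array set 2 held exercised castrated males 7 and 8, sedentary castrated males 6 and 7 and sedentary female 8. It held 0 exercised females, so results are also given within each set, as plain differences of group means. Those differences are not adjusted for sex, which was unequal between the groups within array set 2. The tissue label fitted its markers, since the 10 measured cardiomyocyte genes of 12 listed had mean levels of 11.56 to 14.61 log2. Their summed signal was 17.34 to 17.48 log2 in exercised animals and 17.29 to 17.40 log2 in sedentary animals, and 0 of the 10 passed the test for training (limma; 1 had an unadjusted p under 0.05).

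None of the 30 fatty acid oxidation genes rose or fell with training at a limma adjusted p under 0.05. The count was also 0 for all 41 probe sets, with the smallest adjusted p at 0.0714. At an unadjusted p under 0.05 there were 4 genes, namely HADHB, ACADL and HADH, which read higher in exercised animals, and ANGPTL4, which read lower. Over all probe sets 13.4% passed the adjusted test, 6.48% higher and 6.88% lower in exercised animals, and 27% had an unadjusted p under 0.05. The shares called depended on the level of a probe set, and 21 of the 30 genes lay in the brightest decile of probe sets, where 3.17% were called, against 26.6% in the decile with the highest share. For the brightest probe sets of named genes the share was 10%, with 22.9% at an unadjusted p under 0.05. For those at 10 log2 or more, where 18 of the 30 genes lay, 3.28% were called, or 30 of 916 genes, and 12.4% had an unadjusted p under 0.05, against 3 of the 18 listed genes. RNA of bulk tissue was measured, in which fewer cells of a type and less RNA per cell cannot be told apart.

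**Figure D1:**
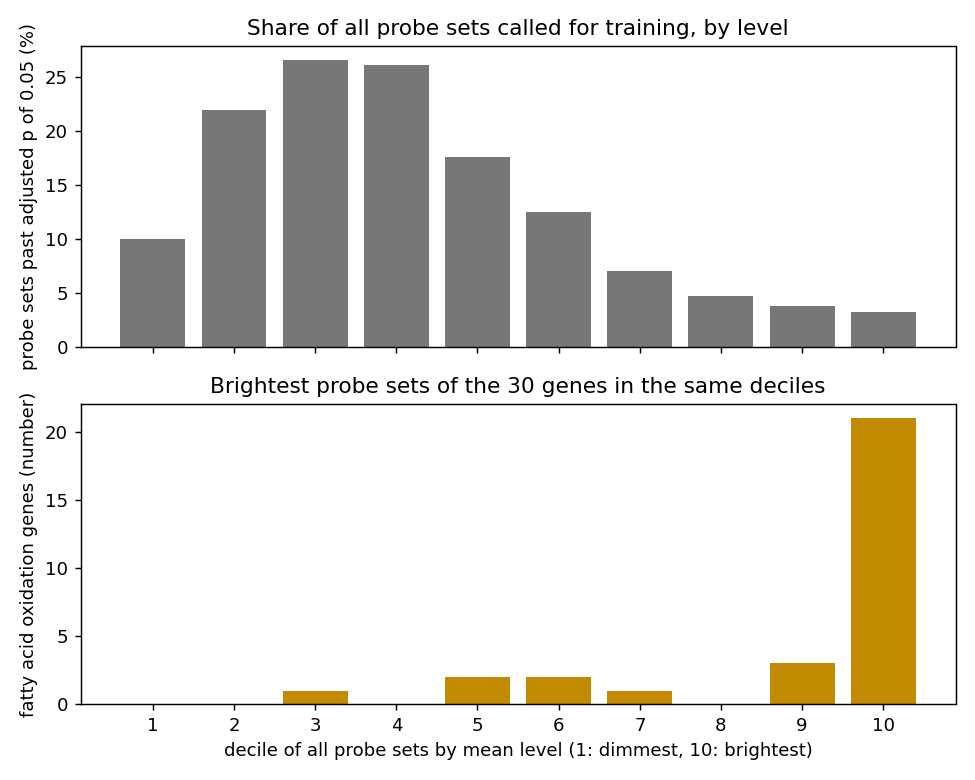
The upper panel plots the percent of probe sets past an adjusted p of 0.05 for training in each decile of all probe sets by mean log2 level, from dimmest to brightest, and the lower panel plots how many of the 30 fatty acid oxidation genes lie in each decile. The share was 26.6% in its highest decile and 3.17% in the brightest decile, which held 21 of the 30 genes.

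The differences themselves were small. The median over the 30 genes was 0.04 log2, with 18 genes above 0, 12 below 0 and a range of -0.78 to 0.22 log2. Over the brightest probe sets of all named genes the median was 0.01 log2 and 53.1% lay above 0, and at 10 log2 or more the median was 0.02 log2 and 56.9% lay above 0. The size of the difference was under 0.2 log2 in 26 of 30 genes. For 24 genes the whole 95% interval from limma lay within 0.5 log2 of 0, a 1.41-fold difference, and for 6 genes it reached further. The ranges of the groups overlapped for each of the 30 genes. Of all probe sets 3.12% had ranges that did not overlap, a share so small that overlap in all 30 genes does not set them apart.

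**Figure D2:**
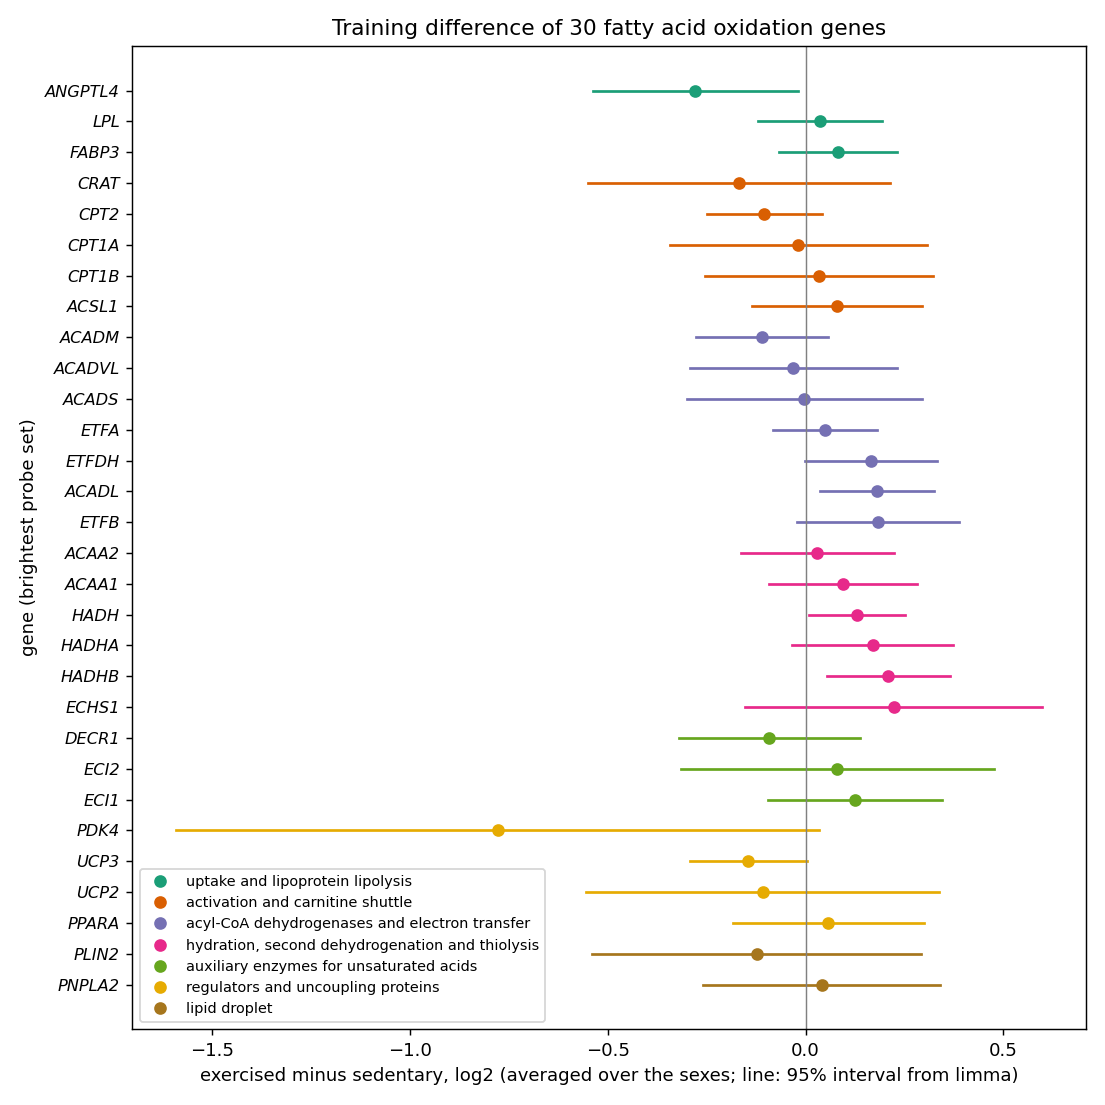
Exercised minus sedentary difference of each of the 30 genes in log2, averaged over the sexes, with its 95% interval from limma, coloured by role and grouped down the page. All but PDK4, at -0.78, lie between -0.28 and 0.22 log2.

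Uptake genes showed no call. FABP3, the heart fatty acid binding protein, read 12.99 to 13.42 log2 (median 13.35) in exercised animals and 12.99 to 13.30 log2 (median 13.23) in sedentary animals. Its difference was 0.08 log2 (SE 0.070). LPL, which frees fatty acids from circulating triglycerides, differed by 0.04 log2 (SE 0.073), and its dimmer probe set by -0.02 log2. ANGPTL4 inhibits LPL and was dim. It read 6.09 to 6.93 log2 (median 6.55) in exercised animals, against 6.61 to 6.97 log2 (median 6.85) in sedentary animals. The exercised animals reached lower, though 3 of 8 lay above the sedentary mean. ANGPTL4 averaged 6.55 ± 0.32 log2 in exercised animals and 6.83 ± 0.13 log2 in sedentary animals (SD, n = 8 each), a difference of -0.28 log2 (SE 0.122, adjusted p = 0.153). Within array sets 1 and 2 it was -0.35 and -0.07 log2, and with sex in the fit -0.38 and -0.18 log2. The dimmer probe set differed by -0.18 log2 (adjusted p = 0.548), with -0.33 and 0.35 log2 in array sets 1 and 2.

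The genes of activation and of the carnitine shuttle lay on both sides of 0, with 2 above and 3 below. ACSL1, which joins long-chain fatty acids to coenzyme A, differed by 0.08 log2. CPT1B and CPT1A encode the muscle and liver forms of the outer-membrane carnitine palmitoyltransferase, the controlled step of entry into mitochondria, and differed by 0.03 and -0.02 log2. CPT1B read 10.33 to 11.32 log2 (median 10.92) in exercised animals and 10.52 to 11.08 log2 (median 10.85) in sedentary animals. The groups thus covered much the same range, and the 95% interval of the difference was -0.26 to 0.32 log2. CPT2, the inner-membrane partner, differed by -0.10 log2, and CRAT, which moves acetyl groups between coenzyme A and carnitine, by -0.17 log2 (SE 0.180). None of the 5 had an unadjusted p under 0.05, and the smallest adjusted p was 0.367, for CPT2.

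Among the acyl-CoA dehydrogenases, which take the first step of the cycle, ACADL had the smallest p. This gene encodes the long-chain enzyme. It read 11.56 to 12.03 log2 (median 11.85) in exercised animals, against 11.54 to 11.79 log2 (median 11.64) in sedentary animals. Of the exercised animals, 7 of 8 lay above the sedentary mean, and the spread was wider in the exercised group. ACADL averaged 11.82 ± 0.16 log2 in exercised animals and 11.64 ± 0.09 log2 in sedentary animals (SD, n = 8 each). The difference was 0.18 log2 (SE 0.068, adjusted p = 0.0958), with 0.22 log2 in array set 1 and 0.02 log2 in array set 2. The dehydrogenases for other chain lengths had pooled differences below 0. ACADM, for medium chains, differed by -0.11 log2, ACADVL, for very long chains, by -0.03 log2, and ACADS, for short chains, by -0.0032 log2 (95% interval -0.30 to 0.29). Within array sets 1 and 2 the ACADS difference was 0.16 and -0.16 log2. None of the 7 genes of dehydrogenation and electron transfer passed, and whether ACADL differed from the other dehydrogenases was not tested.

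Electrons from these enzymes pass through a flavoprotein of an ETFA and an ETFB subunit to ETFDH, which hands them to the respiratory chain. All 3 genes had differences above 0, none past the test. ETFDH read 10.94 to 11.47 log2 (median 11.13) in exercised animals, against 10.83 to 11.23 log2 (median 10.99) in sedentary animals. It averaged 11.16 ± 0.16 log2 in exercised animals and 10.99 ± 0.12 log2 in sedentary animals (SD, n = 8 each), a difference of 0.17 log2 (SE 0.079, adjusted p = 0.191). Its dimmer probe set gave 0.16 log2, with 8 of 8 exercised animals above the sedentary mean (adjusted p = 0.126). Both probe sets of this gene thus gave nearly the same value. ETFB read 10.45 to 11.15 log2 (median 10.81) in exercised animals, against 10.42 to 10.84 log2 (median 10.67) in sedentary animals. The means were 10.81 ± 0.23 log2 in exercised animals and 10.63 ± 0.15 log2 in sedentary animals (SD, n = 8 each), and the difference was 0.18 log2 (SE 0.096, adjusted p = 0.239). The ETFB difference was 0.18 log2 in each array set as a plain difference of means, and 0.22 log2 in array set 1 and 0.089 log2 in array set 2 with sex in the fit. ETFA had the second-smallest spread of the listed genes and differed by 0.05 log2 (95% interval -0.08 to 0.18).

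The 6 genes of hydration, the further dehydrogenation and thiolysis all had differences above 0, at 0.03 to 0.22 log2 with a median of 0.15 log2, and none passed the test. All 6 also lay above 0 when the array set was a term of the model, and 4 of 6 in a fit with a sex term to array set 2 alone. HADHA and HADHB encode the subunits of the mitochondrial trifunctional protein, which carries out these last steps for long chains, and are neighbouring genes in the RefSeq annotation of Sscrofa11.1. HADHB read 12.59 to 13.09 log2 (median 12.86) in exercised animals, against 12.51 to 12.76 log2 (median 12.67) in sedentary animals. The upper part of the exercised range lay above every sedentary animal, and 7 of 8 exercised animals lay above the sedentary mean. HADHB averaged 12.87 ± 0.16 log2 in exercised animals and 12.66 ± 0.09 log2 in sedentary animals (SD, n = 8 each). The difference was 0.21 log2 (SE 0.073, 95% interval 0.05 to 0.36, adjusted p = 0.0724), the smallest p of the 30 genes. Its other probe sets differed by 0.21 log2 (adjusted p = 0.153) and 0.33 log2 (adjusted p = 0.0714). The HADHB difference was 0.27 log2 in array set 1 and 0.05 log2 in array set 2. Leaving out 1 animal at a time gave 0.17 to 0.25 log2, and 15 of these 16 fits did not pass. The fit without exercised animal 8 passed (0.25 log2, adjusted p = 0.0237), and the largest adjusted p was 0.139, without exercised animal 2.

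HADHA differed by 0.17 log2 (SE 0.096, adjusted p = 0.28), with 0.30 log2 in array set 1 and -0.13 log2 in array set 2. HADH, the dehydrogenase for shorter chains, had the smallest spread of the listed genes. It read 12.54 to 12.88 log2 (median 12.65) in exercised animals, against 12.43 to 12.64 log2 (median 12.55) in sedentary animals. Again 7 of 8 exercised animals lay above the sedentary mean. HADH averaged 12.67 ± 0.12 log2 in exercised animals and 12.54 ± 0.07 log2 in sedentary animals (SD, n = 8 each), a difference of 0.13 log2 (SE 0.057, adjusted p = 0.15). Within array set 1 it was 0.19 log2 and within array set 2 it was 0.015 log2.

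ECHS1, the short-chain enoyl-CoA hydratase, had the largest difference above 0, at 0.22 log2, but also a wide spread (SE 0.177, 95% interval -0.15 to 0.60, adjusted p = 0.468). It read 11.57 to 12.43 log2 (median 11.94) in exercised animals and 11.20 to 12.36 log2 (median 11.66) in sedentary animals. The array sets differed for this gene by -0.65 log2, set 1 minus set 2. The training difference was 0.43 log2 in array set 1 and 0.03 log2 in array set 2. With the array set as a term of the model ECHS1 rose by 0.31 log2 (adjusted p = 0.0448). The thiolases ACAA2 of mitochondria and ACAA1 of peroxisomes differed by 0.03 and 0.09 log2.

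Unsaturated fatty acids need further enzymes. The isomerases ECI1 and ECI2 differed by 0.13 and 0.08 log2, and DECR1, the dienoyl-CoA reductase, by -0.09 log2, with adjusted p values of 0.491, 0.836 and 0.653. Over the 16 enzymes of the cycle, of its electron transfer and of unsaturated fatty acids together, 12 had differences above 0 and 4 below, with a median of 0.11 log2.

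**Figure D3:**
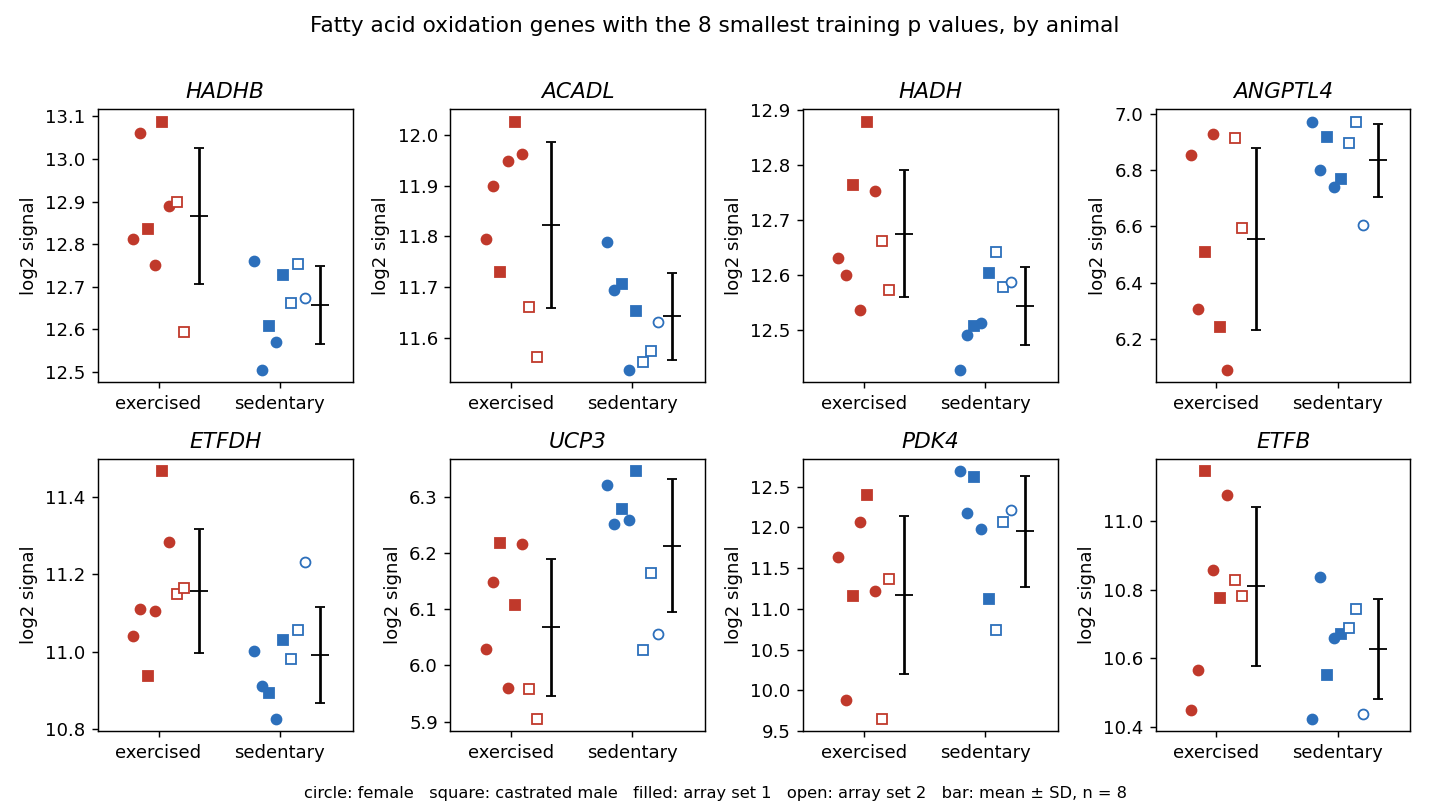
Log2 signal of each of the 16 animals for the 8 genes with the smallest training p, exercised left of sedentary, with the mean and SD of each group. The ranges overlap in every panel; HADHB, ACADL, HADH, ETFDH and ETFB have higher exercised means and ANGPTL4, UCP3 and PDK4 lower ones.

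PDK4, the kinase that holds back pyruvate oxidation, had the widest spread of the 30 genes. It read 9.65 to 12.39 log2 (median 11.29) in exercised animals, against 10.74 to 12.69 log2 (median 12.12) in sedentary animals. The lowest values were 9.65 log2 in exercised animal 7 and 9.89 log2 in exercised animal 2, while the lowest sedentary value was 10.74 log2 in animal 6. PDK4 averaged 11.17 ± 0.96 log2 in exercised animals and 11.95 ± 0.68 log2 in sedentary animals (SD, n = 8 each). The difference was -0.78 log2, a 1.72-fold lower mean in exercised animals, with an SE of 0.383, a 95% interval of -1.59 to 0.03 log2 and an adjusted p of 0.206. It was -0.73 log2 in array set 1 and -1.16 log2 in array set 2, and with sex in the fit -0.59 and -0.89 log2. Of the exercised animals 6 of 8 lay below the sedentary mean, and the dimmer probe set gave -0.96 log2 (adjusted p = 0.188). Leaving out 1 animal at a time gave -0.99 to -0.53 log2.

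The residual SD of PDK4 within groups was 0.865 log2 and its range over the 16 animals was 3.04 log2. That spread exceeded that of 99.4% of probe sets within 0.5 log2 of its level. The next widest of the listed genes was UCP2, at 0.468 log2, and the narrowest was HADH, at 0.091 log2. The median residual SD was 0.213 log2 for the 30 genes and 0.184 log2 for all probe sets.

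The uncoupling proteins sit in the inner mitochondrial membrane, and UCP3 is the form of skeletal muscle and heart. UCP3 read 5.90 to 6.22 log2 (median 6.07) in exercised animals, against 6.03 to 6.35 log2 (median 6.25) in sedentary animals. It was a dim probe set, and 6 of 8 exercised animals lay below the sedentary mean. UCP3 averaged 6.07 ± 0.12 log2 in exercised animals and 6.21 ± 0.12 log2 in sedentary animals (SD, n = 8 each), a difference of -0.15 log2 (SE 0.070, adjusted p = 0.195). It was -0.18 log2 in array set 1 and -0.15 log2 in array set 2. With the array set as a term UCP3 fell by 0.17 log2 (adjusted p = 0.031), and with arrays weighted by their quality it fell by 0.20 log2 (adjusted p = 0.0479). The dimmer UCP3 probe set differed by -0.0053 log2 (adjusted p = 0.986). UCP2 differed by -0.11 log2 (95% interval -0.55 to 0.34), and PPARA, measured by a dim probe set with a mean level of 4.48 log2, by 0.06 log2.

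The lipid droplet genes were PLIN2, a coat protein of droplets, and PNPLA2, the lipase that begins the breakdown of their triglycerides. PLIN2 read 6.56 to 7.54 log2 (median 6.91) in exercised animals and 6.26 to 7.82 log2 (median 7.11) in sedentary animals, a difference of -0.12 log2 (SE 0.196, adjusted p = 0.749). PNPLA2 differed by 0.04 log2, and its dimmer probe set by -0.11 log2. Markers of adipocytes, which also carry several of these lipid genes, had a summed signal of 11.53 to 12.56 log2 in exercised animals and 11.87 to 12.46 log2 in sedentary animals. FABP4 weighed most in that sum of unlogged signals, with a mean level of 11.68 log2 against 9.84 log2 for CFD, the next brightest. Of the 7 measured adipocyte genes of 9 listed, CFD fell by 0.46 log2 (adjusted p = 0.0433) and 6 did not pass, with 3 of the 7 at an unadjusted p under 0.05. GPD1 had the largest difference, 0.63 log2 (adjusted p = 0.0576), at 7.71 ± 0.45 log2 in exercised animals and 7.08 ± 0.55 log2 in sedentary animals (SD, n = 8 each). ADIPOQ averaged 4.90 ± 1.08 log2 in exercised animals and 4.98 ± 0.46 log2 in sedentary animals (SD, n = 8 each). The part of fat cells in the lipid gene values was not tested. Among markers of other cells, 0 of 8 endothelial and 0 of 5 fibroblast genes passed (limma; 1 of each at an unadjusted p under 0.05). Of 6 leukocyte genes CD79B, dim at a mean level of 4.00 log2, rose by 0.26 log2 (adjusted p = 0.0126) and the others did not pass. Those others lay on both sides of 0, with PTPRC at 0.21, CD3E at 0.18, CD14 at -0.29, CD163 at -0.24 and ITGB2 at -0.11 log2.

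PDK4, UCP3, ANGPTL4, PLIN2, CPT1A, CPT1B and UCP2 are textbook targets of PPARA, so the level of PDK4 over the 16 animals was set against that of each of the others, 6 pairs in all. The largest correlation was with PLIN2, at a Pearson r of 0.52 (permutation p = 0.0374, adjusted over the pairs 0.225) and a Spearman rho of 0.52 (permutation p = 0.043, adjusted 0.258). It was 0.47 without the exercised animals 7 and 2, farthest from the PDK4 median, and 0.59 within the 11 arrays of array set 1 (permutation p = 0.0586). Within the groups of 8, r was 0.36 in exercised and 0.73 in sedentary animals. CPT1A had an r of 0.45 (permutation p = 0.083, adjusted 0.249), and 0.29 within array set 1. The others were 0.34 for UCP3, 0.21 for ANGPTL4, -0.11 for CPT1B and -0.24 for UCP2, and none of the 6 passed after adjustment. Within array set 1 they were 0.086 for UCP3, 0.53 for ANGPTL4 (permutation p = 0.0881), -0.096 for CPT1B and 0.023 for UCP2. Without exercised animals 7 and 2 the value for CPT1B was 0.11, so neither the CPT1B nor the UCP2 correlation held its sign.

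**Figure D4:**
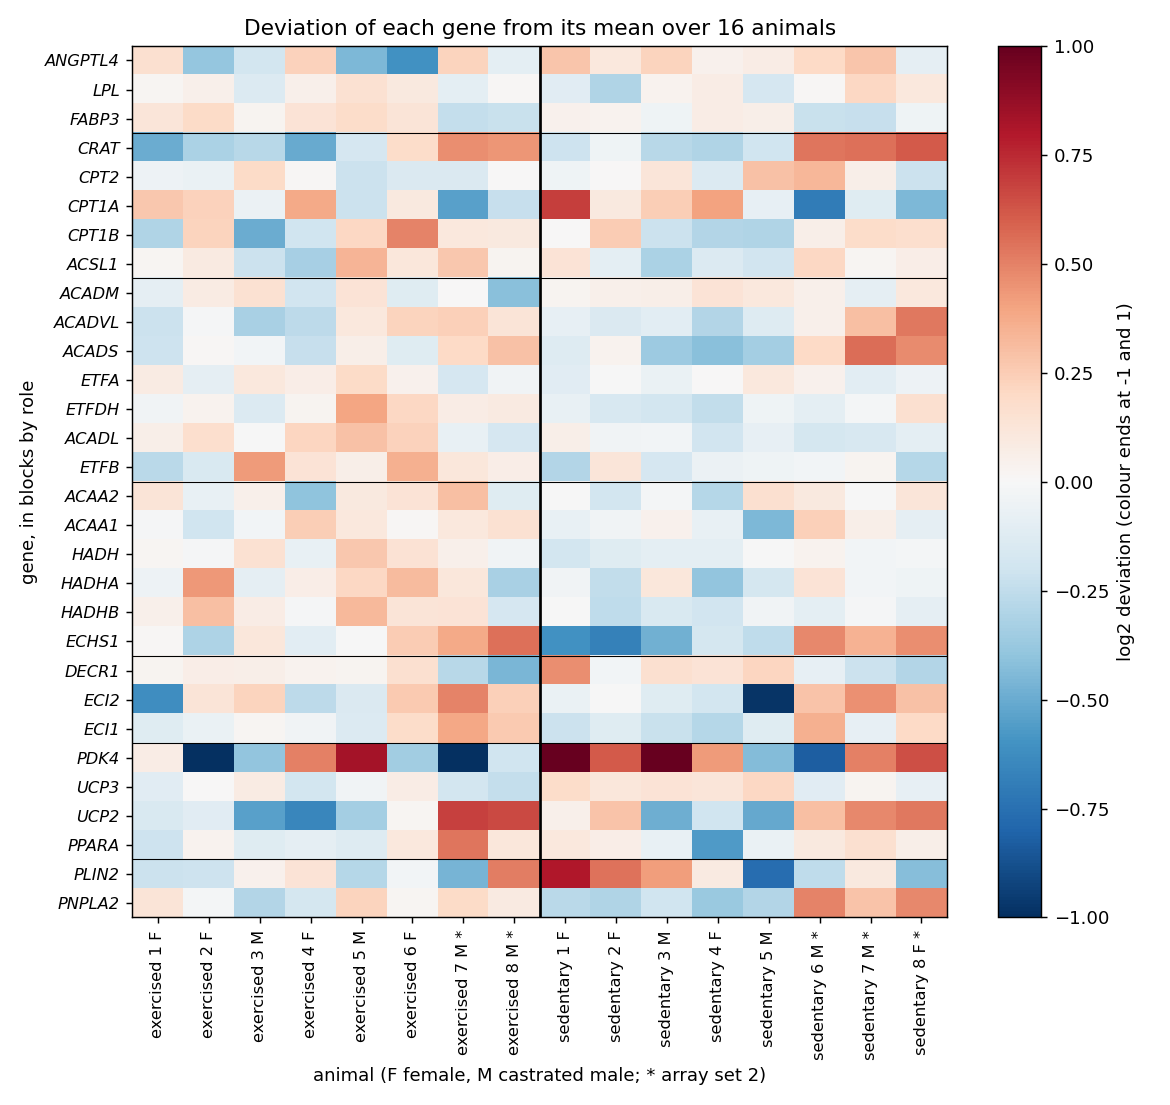
Deviation of each of the 30 genes from its own mean over the 16 animals, in log2, with genes in blocks by role and exercised animals left of sedentary ones; arrays of set 2 carry an asterisk. The PDK4 row holds the widest range, 3.04 log2.

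For several of these genes the means of the array sets lay further apart than those of the groups. Set 1 minus set 2 was -0.77 log2 for UCP2, -0.76 log2 for CRAT, -0.65 log2 for ECHS1, -0.52 log2 for ECI2, -0.50 log2 for ACADS and 0.60 log2 for CPT1A. For PDK4 it was 0.52 log2, a smaller size than the training difference. The residual SD of CRAT, ECHS1 and CPT1A, computed without the array set, was 0.398, 0.391 and 0.335 log2. With the array set as a term in the model 2 of the 30 genes passed, ECHS1 higher and UCP3 lower. In that fit 4325 of all 23935 probe sets were called. The share at the level of the 30 genes was not computed for that fit, so these counts do not compare probe sets of like level.

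Training was also compared within each sex. In females 0 of 30 genes passed (limma, smallest adjusted p 0.148), where 3.72% of all probe sets were called. At an unadjusted p under 0.05 there were 3 genes, HADHA, HADHB and ACADL, against 18.2% of all probe sets. Of the 916 named genes at 10 log2 or more, 2 were called higher and 1 lower in exercised females. Of the same 916 genes, 82 had an unadjusted p under 0.05 in females. HADHA averaged 11.42 ± 0.22 log2 in exercised females and 11.05 ± 0.17 log2 in sedentary females (SD, n = 4 each), a difference of 0.37 log2. HADHB and ACADL differed by 0.25 and 0.24 log2 in females. The dimmer HADHB probe sets differed by 0.42 and 0.49 log2 in females (limma adjusted p = 0.0926 and 0.116), and by 0.0046 and 0.18 log2 in castrated males. In castrated males 0 of 30 passed (limma, smallest adjusted p 0.202), where 3.77% of all probe sets were called. Only CPT2 had an unadjusted p under 0.05, against 17.3% of all probe sets. Of the 916 named genes at 10 log2 or more, 0 were called higher and 1 lower in exercised castrated males, and 37 had an unadjusted p under 0.05. CPT2 averaged 5.86 ± 0.18 log2 in exercised males and 6.10 ± 0.13 log2 in sedentary males (SD, n = 4 each), a difference of -0.24 log2.

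HADHA differed by -0.03 log2 in castrated males, so the sexes were 0.41 log2 apart. For UCP2 the difference was -0.39 log2 in females and 0.17 log2 in males, for PLIN2 -0.33 and 0.08 log2, and for ECI2 -0.13 and 0.29 log2. PDK4 lay below 0 in both sexes, at -1.06 log2 in females and -0.49 log2 in males. The test of the difference between the sexes called 0 of 30 genes, and 0 had an unadjusted p under 0.05 (limma). It called 0% of all probe sets, and 2.59% had an unadjusted p under 0.05. The training difference had the same sign in both sexes for 18 of 30 genes, 13 above 0 and 5 below, or 60%. For the brightest probe sets of all named genes that share was 69.6%, and at 10 log2 or more it was 65%.

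**Figure D5:**
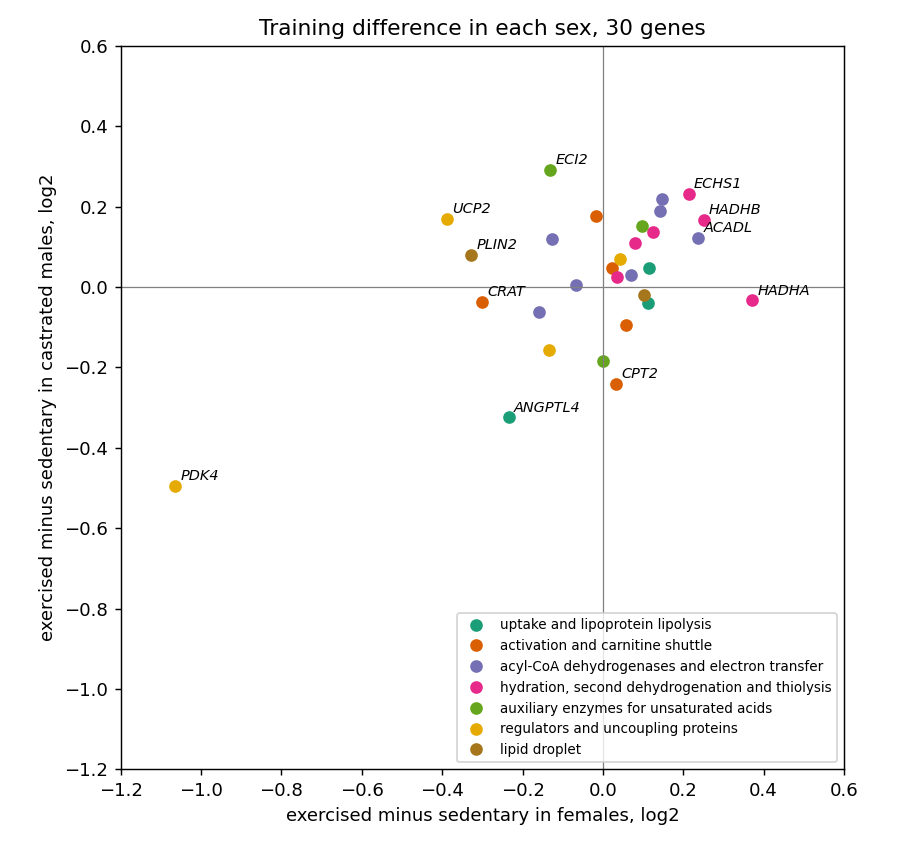
Exercised minus sedentary difference of each of the 30 genes in females (horizontal axis) and castrated males (vertical axis), in log2, coloured by role. PDK4 lies far out at -1.06 and -0.49 log2, and 12 genes have opposite signs in the sexes.

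Females and castrated males were compared as well, averaged over training. None of the 30 genes passed (limma; smallest adjusted p 0.537), where 0.0919% of all probe sets were called, and 3 had an unadjusted p under 0.05, against 9.26% of all probe sets. Female minus male, CPT1A differed by 0.43 log2, FABP3 by 0.17 log2 and CPT2 by -0.16 log2. Array set 2 held 4 males and 1 female, and with the array set as a term these differences were 0.24, 0.08 and -0.19 log2.

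A further 69 genes of fatty acid transport, oxidation, synthesis and control were listed, and 45 were measured. On the brightest probe set 6 of them passed the test for training, 4 higher and 2 lower, and 14 had an unadjusted p under 0.05. For the brightest probe sets of all named genes 10% passed, 5.11% higher and 4.91% lower, and 22.9% had an unadjusted p under 0.05. Over all 69 probe sets of these genes 11 passed, 5 higher and 6 lower, against 13.4% of all probe sets, 6.48% higher and 6.88% lower. With the mean of a gene's probe sets 4 genes were higher and 4 lower. Dimmer probe sets fell in genes whose brightest one did not pass, by 0.55 log2 for AUH, 0.37 log2 for RXRA, 0.31 log2 for PPARD and 0.25 log2 for DGAT1. In AUH, an enoyl-CoA hydratase of leucine breakdown, the groups did not overlap on that probe set (adjusted p = 0.00116), as for 3.12% of all probe sets. The brightest AUH probe set differed by -0.11 log2 (adjusted p = 0.449). AUH, RXRA, PPARD and DGAT1 were named after their values were seen. ACAD9, an acyl-CoA dehydrogenase that also helps to assemble respiratory complex I, rose by 0.30 log2 (SE 0.092, adjusted p = 0.0395). It averaged 7.70 ± 0.15 log2 in exercised animals and 7.40 ± 0.21 log2 in sedentary animals (SD, n = 8 each), with 8 of 8 exercised animals above the sedentary mean.

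SCP2, which encodes a sterol carrier and a peroxisomal thiolase, rose by 0.23 log2 (SE 0.070, adjusted p = 0.042). Its level was 11.62 ± 0.09 log2 in exercised animals and 11.39 ± 0.16 log2 in sedentary animals (SD, n = 8 each), and 8 of 8 exercised animals lay above the sedentary mean. ACOT9, a mitochondrial acyl-CoA thioesterase, rose by 0.20 log2 (SE 0.061, adjusted p = 0.0426), at 10.40 ± 0.14 log2 in exercised animals and 10.20 ± 0.07 log2 in sedentary animals (SD, n = 8 each). ACACA, the carboxylase that makes malonyl-CoA for fatty acid synthesis, was dim, at 4.67 ± 0.12 log2 in exercised animals and 4.39 ± 0.20 log2 in sedentary animals (SD, n = 8 each). It rose by 0.28 log2 (SE 0.084, adjusted p = 0.0367), and its dimmer probe set rose by 0.24 log2 (adjusted p = 0.0132).

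PPARG, the receptor that drives fat cell development, fell by 0.52 log2 (SE 0.158, adjusted p = 0.0408). It averaged 5.75 ± 0.37 log2 in exercised animals and 6.26 ± 0.28 log2 in sedentary animals (SD, n = 8 each), and 7 of 8 exercised animals lay below the sedentary mean. The PPARG difference was -0.67 log2 in array set 1 and -0.26 log2 in array set 2. CPT1C, a brain form of the carnitine palmitoyltransferase, fell by 0.20 log2 on its brightest probe set (SE 0.054, adjusted p = 0.0217), at 4.95 ± 0.10 log2 in exercised animals and 5.15 ± 0.08 log2 in sedentary animals (SD, n = 8 each). Its 2 other probe sets differed by 0.14 and 0.25 log2, so its probe sets disagreed in sign.

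No call remained with only probe sets at or above the 40th percentile of level, where 39 genes were tested and the smallest adjusted p was 0.0777. CPT1C and ACACA lay below that level, so they were not retested there. CPT1C also differed by 0.06 log2 (adjusted p = 0.524) on the mean of its probe sets. Each call except that of CPT1C was lost in most of the 16 fits that left out 1 animal. ACAD9 passed in 5 of these fits, SCP2 in 4, ACOT9 in 3, ACACA in 6 and PPARG in 4, against 16 for CPT1C. The count of calls in these fits ran from 1 to 5. It was 1 without exercised animal 3 or sedentary animal 1, 3 or 4, and 2 without exercised animal 1, 2 or 5 or sedentary animal 2. It was 3 without exercised animal 7 or sedentary animal 7. SLC25A20, the carnitine carrier of the inner membrane, averaged 9.42 ± 0.22 log2 in exercised animals and 9.19 ± 0.22 log2 in sedentary animals (SD, n = 8 each). The difference was 0.23 log2 (SE 0.099, adjusted p = 0.152), with 0.38 log2 in females and 0.07 log2 in castrated males. PPARGC1A, a coactivator of PPARA and of mitochondrial genes, read 9.80 to 10.67 log2 (median 10.02) in exercised animals and 9.58 to 10.70 log2 (median 10.31) in sedentary animals. The difference was -0.21 log2 (SE 0.137, adjusted p = 0.355), and leaving out 1 animal at a time gave -0.33 to -0.15 log2. PPARGC1A passed in 1 of these fits, without sedentary animal 5 (-0.33 log2, adjusted p = 0.0283), and the largest adjusted p, 0.548, was without sedentary animal 3.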

How the data were processed

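Left ventricle RNA was labelled with biotin for an Affymetrix porcine array with 1 channel, per the labels' protocols. Each value is the log2 signal of a probe set as deposited. How the authors summarised and normalized the log2 signals was not stated in the sources used here. The unit was read from the values, and no further normalization was applied. Of 24123 probe sets, 188 controls were left out. Symbols are those of the platform annotation and some may be out of date. The Entrez identifiers of 9989 of its 10297 entries were found in the RefSeq table of Sscrofa11.1, and 0 symbols changed.

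Means for the 4 combinations of training and sex were estimated for all 23935 probe sets over 16 arrays, using limma 3.58.1 (lmFit, eBayes) under R 4.3.3, with 12 residual and 3.50 prior degrees of freedom. Tests were two-sided. The Benjamini-Hochberg adjustment ran over all probe sets, with a threshold of 0.05 and no limit on fold. Adjusted p values of genes are limma's. Correlations used permutation tests of 100000 resamples.

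The members, gene lists and tests were chosen with earlier results of these data known. Full values are given for the 8 listed genes with the smallest training p, and for other fatty acid genes past the threshold together with PPARGC1A and SLC25A20. The probe set with the highest mean stood for a gene.

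Alternatives were quantile normalization, median centring, a filter at the 40th percentile of level, trended and robust eBayes, array weights, the array set as a term or apart, a replicate block, no sex term, the mean of a gene's probe sets, and leaving out each array. The number of arrays limits the precision.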

Additional observations from a re-analysis of the deposited data

Results flagged for a closer look

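In each of the 60 groups given by 30 genes and 2 treatments, the lowest and the highest of 8 animals were set against the rest by the gap to the nearest animal as a share of the group's range. The gap exceeded Dixon's 95% critical value for groups of 8 in 3 of the 60 groups, and chance gives about 1 in 20 groups. PPARA was highest in exercised animal 7, at 5.02 log2 with the nearest at 4.59 log2, a gap of 0.569 of the range. PPARA was lowest in sedentary animal 4, at 3.92 log2 with the nearest at 4.40 log2, a gap of 0.673 of the range. ECI2 was lowest in sedentary animal 5, at 8.80 log2 with the nearest at 9.60 log2, a gap of 0.555 of the range. The training difference of PPARA, 0.06 log2 over all animals, was -0.016 log2 without exercised animal 7 and -0.023 log2 without sedentary animal 4. That of ECI2, 0.08 log2 over all animals, was -0.068 log2 without sedentary animal 5.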

How the results depend on the processing

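The number of arrays and the brightness of a probe set limit these results. Of the 30 genes, 15 kept the sign of their training difference under all 27 other settings, and the rest had another sign under some. The count called for training was 1 with array weights, 2 with the array set as a term, 0 to 1 when each array was left out, and 0 under the other settings. In each sex, for the difference between the sexes and for the sex difference it was 0 under every setting run. For the other fatty acid genes it was 6, but 0 with the filter at the 40th percentile (39 tested) and 0 within array set 2. It was 1 to 5 when each array was left out. With the array set as a term 9 of 45 passed, against 4325 of all 23935 probe sets. Over all probe sets 3197 were called for training, but 631 with that filter and 0 within array set 2. In females 890 were called, against 85 with the filter, 2387 with array weights, 333 with the replicate block and 462 to 890 when each array was left out. In castrated males 902 were called, against 56 with the filter, 1553 with the array set as a term, 402 with the replicate block and 471 to 1010 when each array was left out. For the sex difference 22 were called, against 40 with array weights, 13 with the replicate block and 20 to 83 when each array was left out. For the replicate block, exercised and sedentary animals were matched by their number. Correlations of same-numbered deviations ran from -0.03 to 0.39, with 5 of 8 pairs above 0.1. Only 1 of 8 exercised animals correlated best with its own number. Such correlations cannot settle whether the numbers mark pairs. With that block the count was 0 of 30 genes, 7 other genes and 3528 probe sets.

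Fitted with a sex term, which plain differences of means leave out, the sign differed within array set 2 for ACAA1 (-0.024), ACADVL (0.0069), CPT1A (0.026), CPT1B (-0.021), ECI2 (-0.0013), ETFA (-0.070), FABP3 (-0.0027), HADHA (-0.16), LPL (-0.15), PLIN2 (0.11), PNPLA2 (-0.25) and UCP2 (0.28), all in log2. It differed for ACADS and ACADVL with array weights (0.064 and 0.034), with the array set as a term (0.063 and 0.020) and within array set 1 (0.20 and 0.056). With the mean of a gene's probe sets it differed for CPT1C (0.062) and PNPLA2 (-0.036). Leaving out each array gave ranges across 0 for ACAA2 (-0.0065 to 0.089), ACADS (-0.071 to 0.088), ACADVL (-0.079 to 0.057), CPT1A (-0.12 to 0.066), CPT1B (-0.039 to 0.11), ECI2 (-0.068 to 0.17), LPL (-0.0043 to 0.068), PNPLA2 (-0.020 to 0.14), PPARA (-0.023 to 0.10) and UCP2 (-0.20 to 0.0014). The cause was not tested.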
